A study of Mus musculus with 6 samples.

Results

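The cytoplasmic ribosomal protein genes were examined for open chromatin in wild-type and Utx knockout mouse bone marrow progenitors. Members were protein-coding genes whose symbol is Rpl or Rps followed by a number and at most 1 letter, without the -l paralogs and the -ps pseudogenes, together with Rplp0, Rplp1, Rplp2 and Rpsa. The rule used gene symbols alone and found 76 of 21883 protein-coding genes, of which 46 encode large subunit proteins and 30 small subunit proteins. It took in 54 genes that had also been listed by name and 22 more. The members lay within 5 kb of 205 of the 54063 open regions found near protein-coding genes.

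Open chromatin was mapped by ATAC-seq, which uses a transposase to cut and tag exposed DNA. The cells were bone marrow progenitors of C57BL/6 mice, obtained by lineage depletion. Lineage depletion removes most mature blood cells and leaves a mixture enriched for stem and progenitor cells. There were 3 samples labelled UTX wild type (WT1 to WT3) and 3 labelled UTX knockout (KO1 to KO3). Utx, gene symbol Kdm6a, is an X-linked histone H3 demethylase, and the study compared mice with and without it. The labels used here do not give the allele, a Cre driver, the sex or age of the animals, or whether each sample was a separate animal. The p-values below therefore measure the spread between these samples, which may be technical.

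Each sample was represented by 1 list of peaks, the intervals called open, with positions and no score, so depth is unknown and a peak was read as present or absent. The WT lists held 57405, 57917 and 57622 peaks and the KO lists 45260, 50249 and 44576. All 9 progenitor markers, among them Kit, Cd34 and Runx1, had a peak at the start in every sample. Of 6 erythroid markers, 6 had a start peak in each WT list and 3 in each KO list. Of 5 B cell markers, 3, 3 and 2 had one in the WT lists and 5 in each KO list, while Cd3e, Cd3g, Cd4 and Cd8a had none in any list. Kdm6a had 4, 5 and 5 peaks within 5 kb in WT and 6, 6 and 5 in KO, which does not check the deletion. In bulk cells, fewer cells of an open type and less opening per cell cannot be told apart.

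Ribosomal proteins assemble with ribosomal RNA into the small subunit, which reads the messenger RNA, and the large subunit, which joins amino acids. Their genes are short, strongly transcribed in dividing cells, and often carry small nucleolar RNAs (snoRNAs) in their introns. Transcription commonly begins in a run of pyrimidines that starts with C, which places the messages under mTOR-dependent translational control. Progenitors of red cells depend on a full supply of these proteins, and loss of 1 copy of several members causes inherited red cell failure. Of the 76 members, 29 held an annotated snoRNA.

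Stretches from 70 bases before to 20 bases from the annotated start onward show promoters of 6 members named below, chosen after their values were seen. They are RefSeq sequences of GRCm38.p6, the mm10 assembly, written 5′ to 3′ on the gene's strand. Capitals mark the ETS factor motif CCGGAAGT, or the pyrimidine tract at the start.
Rps12 (chr10:23787190-23787279, minus strand): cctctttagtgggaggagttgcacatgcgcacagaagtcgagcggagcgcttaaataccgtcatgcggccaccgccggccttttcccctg
Rps15a (chr7:118116128-118116217, minus strand): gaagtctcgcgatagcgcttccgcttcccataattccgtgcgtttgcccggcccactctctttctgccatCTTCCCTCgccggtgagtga
Rpl27a (chr7:109519125-109519214, plus strand): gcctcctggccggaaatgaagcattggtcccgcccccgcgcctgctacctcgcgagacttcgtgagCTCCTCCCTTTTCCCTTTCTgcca
Rps3 (chr7:99483690-99483779, minus strand): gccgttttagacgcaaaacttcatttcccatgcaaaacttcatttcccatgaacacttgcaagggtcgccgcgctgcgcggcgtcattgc
Rpl41 (chr10:128549149-128549238, minus strand): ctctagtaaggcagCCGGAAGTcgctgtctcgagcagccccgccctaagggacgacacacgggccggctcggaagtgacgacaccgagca
Rpl11 (chr4:136053374-136053463, minus strand): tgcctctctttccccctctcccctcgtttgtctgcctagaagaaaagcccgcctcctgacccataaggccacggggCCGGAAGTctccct

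The Rpl27a tract was 20 bases long and began 4 bases before the annotated start, whereas that of Rps15a was 8 bases long and began on it. RefSeq promoters, from 250 bases before the start to 50 after it, were at hand for 56 members and for 17491 genes in all. A tract means C and at least 4 further pyrimidines on the gene's strand, beginning within 5 bases of the start. It was found in 27 of the 56 members (48.2%) against 21.5% of all genes. The count depends on where the start is annotated, and a pyrimidine run farther into the printed Rps12 stretch was not counted. The ETS motif, searched on both strands, was in 11 members (19.6%) against 5.69% of all: Rpl11, Rpl19, Rpl26, Rpl31, Rpl35, Rpl37, Rpl41, Rps18, Rps25, Rps6 and Rpsa. The YY1 motif ATGGCGGC was in 4 members (7.14% against 3.5%), and the SP/KLF box GGGCGG in 34 (60.7% against 49.2%). TATAAA was in 6 members (10.7% against 14.8%), the GATA motif AGATAA in 4 (7.14% against 11.2%) and the E-box CACGTG in 6 (10.7% against 8.91%), all on both strands. None of these motifs contains another, and a match is a run of letters and does not show that a factor binds.

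The starts of the ribosomal protein genes were open in both genotypes. A peak lay within 1 kb of the start in every sample for 75 of the 76 members (98.7%), against 11390 of all protein-coding genes (52.0%). For the 20 members without a strand in the promoter table, either annotated end was taken as the start. The exception was Rpl17, a protein at the mouth of the large subunit's exit tunnel. It had a peak of 1039, 1084 and 1017 bp in the WT lists and 1009, 1036 and 921 bp in the KO lists, which lay inside its annotated span but more than 1 kb from either end. The members therefore did not differ between genotypes in whether the start was called open. None of 303 ribosomal protein pseudogenes had a peak in any sample. Of 10429 pseudogenes of all kinds, 276, 276 and 269 had a peak in the WT lists and 230, 259 and 237 in the KO lists. A region open in all 6 samples was found at 176 of them (1.69%). The filters applied to reads are not known here, so the absence of a peak does not show that the ribosomal protein pseudogenes were closed.

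The number of peaks near members was lower in the KO lists, which were also shorter. The WT samples held 178, 177 and 185 member peaks and the KO samples 138, 148 and 142, with no overlap. As a share of all peaks these were 0.312% ± 0.00795 (SD, n = 3) in WT and 0.306% ± 0.012 (SD, n = 3) in KO, which overlapped (two-sided exact permutation test, p = 0.4). With 3 samples against 3, the smallest p this test can give is 0.1. When every list was shortened to its widest peaks at the length of the shortest, which removes narrow peaks mainly from the WT lists, the share was 0.353% ± 0.0124 in WT and 0.308% ± 0.00907 in KO (SD, n = 3; two-sided exact permutation p = 0.1). Peaks at starts numbered 87.3 ± 3.79 in WT and 82.7 ± 0.577 in KO (SD, n = 3) and overlapped. Peaks in the flanks, within 5 kb outside the gene and away from its start, numbered 76.3 ± 2.52 in WT and 50.3 ± 5.03 in KO (SD, n = 3) and did not overlap (two-sided exact permutation p = 0.1).

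Overlapping peaks of the 6 lists were merged into regions, and a region was counted as lost when all 3 WT samples and no KO sample had a peak in it, and as gained in the opposite case. Of the 205 member regions, 15 were lost (7.32%), 2 were gained (0.976%) and 120 were open in every sample. Over all protein-coding genes 10.7% were lost and 3.97% gained, so losses were no more frequent near members than near genes at large. At starts 2 of 92 member regions were lost (2.17%, against 2.81% of all), inside genes 2 of 22 (9.09% against 13.6%) and in flanks 11 of 91 (12.1%, against 12.1%). Gains numbered 1 at starts (1.09%, against 1.69%), 0 inside genes (against 5%) and 1 in flanks (1.1%, against 3.25%). A further 68 regions were open in some samples of a group, and 60 of these had more WT than KO peaks, 6 had more KO peaks and 2 had as many. More WT than KO peaks were thus found in 88.2% of these member regions, against 69.2% of the 22430 such regions near all genes, and more KO peaks in 8.82% against 24.1%. Regions open in WT samples alone came to 57 (27.8%, against 28.4% of all) and those open in KO samples alone to 5 (2.44%, against 10.4%). Without KO2, whose list was the longest of the 3 KO lists, 23 regions met the rule for a loss, and leaving out any other sample gave 17 to 22.

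The 15 lost regions lay at 12 members and were 329 to 1795 bp wide. Of the 11 in flanks, 6 were downstream of the gene, 2 upstream, and 3 belonged to members without a known strand. The other 62 members had neither a lost nor a gained region, and 36 of them had at least 1 region open in part of the samples.

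Rps12, which encodes a small subunit protein and holds 3 snoRNAs, had 2 lost regions past its far end. The wider, chr10:23783008-23784802, began 381 bp downstream and was covered by peaks over 539, 1352 and 1749 bp in WT1, WT2 and WT3, and by none in KO. The second, chr10:23781681-23782403, lay 2780 bp downstream and was covered over 405, 230 and 400 bp in WT. The Rps12 start, the first of the printed sequences, had a peak in all 6 samples.

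At Rpl27a, a large subunit gene, the lost region chr7:109524168-109525301 lay 1799 bp downstream and was covered over 1053, 288 and 943 bp in the WT samples. At Rps3, whose protein lines the channel where messenger RNA enters the ribosome, chr7:99474752-99475650 lay 2246 bp downstream and was covered over 621, 526 and 557 bp. Both regions were without a peak in any KO sample. Rpl13, a large subunit gene, lost a region 533 bp past its end (395, 253 and 252 bp in WT). Rpl37a, another large subunit gene, lost one at 4953 bp (364, 429 and 346 bp), near the limit of the 5 kb window.

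Rps26, whose protein sits where messenger RNA leaves the ribosome and whose loss causes inherited red cell failure, had a lost region whose centre lay 1003 bp into the gene (400, 367 and 448 bp in WT). Its other lost region, 3260 bp upstream (321, 256 and 344 bp), was at the start of Ikzf4, a lymphoid zinc finger factor gene. Rpl26, also a red cell failure gene, lost a region 2324 bp upstream (654, 269 and 496 bp).

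Rpl3, whose protein reaches into the peptidyl transferase centre, lost a region inside the gene (232, 232 and 406 bp in WT). A second, 4057 bp outside it (631, 443 and 605 bp), was lost too. Rps9, a protein that bears on decoding accuracy, lost an intragenic region (295, 204 and 436 bp). Rplp1, an acidic stalk protein that recruits elongation factors, lost a region 2005 bp away (420, 597 and 704 bp). Widths differed among the WT samples, and no KO sample had a peak in any of these regions.

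Both gained regions were on chromosome 7. At Rpl28, a large subunit gene, chr7:4791259-4792021 was centred at -1325 bp relative to the start and covered over 564, 761 and 754 bp in KO1, KO2 and KO3. At Rps13, a small subunit gene, chr7:116327958-116328347 lay 3160 bp downstream and was covered over 329, 367 and 323 bp. Neither had a peak in a WT sample.

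**Figure D1:**
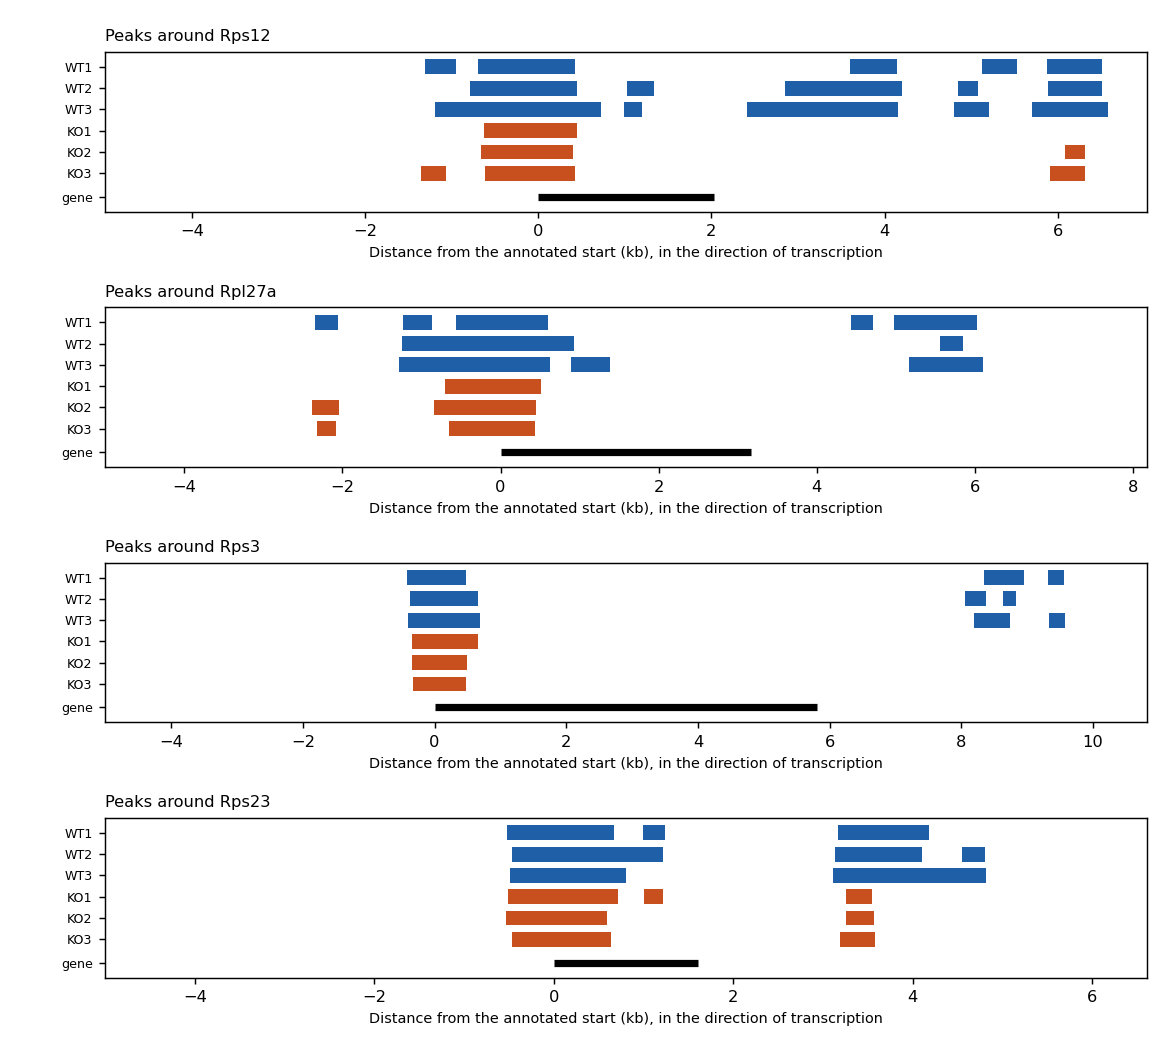
Peaks called in each sample (bars, WT blue and KO orange) around Rps12, Rpl27a, Rps3 and Rps23, by distance in kb from the annotated start along the direction of transcription, with the gene as a black line. The start peak is present in all 6 samples of each gene, whereas downstream peaks are absent from every KO sample at Rpl27a and Rps3, and at Rps23 cover 294 to 395 bp in KO against 1014 to 1716 bp in WT.

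The start regions themselves were narrower in KO. Width was taken as the bases under peaks in the region at a start. The median over members was 1046, 1105 and 1126 bp in WT and 942, 946 and 921 bp in KO, with no overlap (two-sided exact permutation p = 0.1). The median over start regions of all genes was 1040, 1025 and 1081 bp in WT and 973, 993 and 953 bp in KO. The member median was thus above that of all start regions in each WT sample, though little in WT1, and below it in each KO sample. Taken per gene, the median of the mean WT width was 1075 bp over members and 1074 bp over all genes, so members were not wider in WT by that measure. The median peak of the whole lists was 433 ± 7.09 bp in KO and 408 ± 4.16 bp in WT (SD, n = 3). The lists differ in length, so these medians are over different sets of peaks. Over all regions open in all 6 samples, the median log2 width differed by -0.06, KO minus WT.

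Of 75 member start regions, 67 had a lower mean log2 width in KO, and the median difference was -0.22 on the log2 scale. Over all start regions 69.1% were lower and the median difference was -0.09. The widths did not overlap between genotypes, with KO narrower, in 32 members against 28.5% of all start regions, and with KO wider in 2 against 9.63% of all. Limma with Benjamini-Hochberg adjustment over every region open in all 6 samples called 8 member regions narrower (10.7%, against 7.34% of all start regions) and 0 wider (against 3.4%). At an unadjusted limma p under 0.05 there were 26 members (34.7%, against 26.4% of all start regions). The count was smaller whichever sample was left out, at 4 without WT1, 4 without WT2, 5 without WT3, 3 without KO1, 5 without KO2 and 3 without KO3. Without KO1 the share called was 4% of members against 5.03% of all start regions, and without KO3 it was 4% against 4.05%, so these calls were then no more frequent among members. The other 4 fits gave 5.33% to 6.67% of members against 3.29% to 6.03% of all. With the widths of each sample centred on its median there were 5 calls and a median difference of -0.16, and the calls over all start regions were then 590 narrower and 430 wider, against 747 and 346 uncentred.

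The 8 called regions were all at large subunit genes. Rpl27a was the most narrowed member, at 1525, 2175 and 2405 bp in WT and 1218, 1285 and 1080 bp in KO (log2 difference -0.75, SE 0.18, limma adjusted p = 0.0377). Rpl3 covered 1392, 1206 and 1400 bp in WT and 910, 931 and 856 bp in KO (log2 difference -0.57, SE 0.10, limma adjusted p = 0.0124). Rpl7a, with 4 snoRNAs and a start shared with Med22, covered 1302, 1338 and 1455 bp in WT and 963, 973 and 942 bp in KO (log2 difference -0.51, SE 0.08, limma adjusted p = 0.0112). The WT and KO samples of each of these genes stood apart.

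Rpl41, which encodes a very short basic peptide of the large subunit and whose promoter holds the ETS motif shown above, had the widest start region of all members in WT. Its region, shared with the start of Zc3h10, covered 3245, 3260 and 3280 bp in WT and 2302, 2351 and 2543 bp in KO (log2 difference -0.44, SE 0.08, limma adjusted p = 0.0156). These bases lay in 1 peak in each WT sample and were summed over 3 separate peaks in each KO sample. The downstream edge of the peak at the Rpl41 start lay at 2904, 2856 and 2856 bp in WT and at 486, 495 and 507 bp in KO. The other calls were Rpl23, a large subunit protein that can bind Mdm2 (-0.40), Rpl9 (-0.36), Rpl29 (-0.32) and Rpl4, a protein of the exit tunnel wall (-0.31), with limma adjusted p of 0.0324, 0.0463, 0.037 and 0.0387. None of these 4 had overlapping groups, and the 3 samples of a genotype differed little, as in Rpl4 with 1174, 1105 and 1126 bp against 920, 913 and 908 bp. The called regions of Rpl9 and Rpl4 were shared with the starts of Lias and Zwilch.

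Rpl13 and Rps27a were also among the 6 most narrowed members but were not called. Rpl13 covered 757, 711 and 1349 bp in WT and 553, 743 and 511 bp in KO, which overlapped (log2 difference -0.60, SE 0.27, limma adjusted p = 0.176). Rps27a, which encodes ubiquitin fused to a small subunit protein, covered 3012, 2464 and 3682 bp in WT and 2186, 2135 and 1804 bp in KO (log2 difference -0.57, SE 0.16, limma adjusted p = 0.0623).

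At the other end, 8 members had a difference above 0, among them Rpl31 (0.19), Rps6 (0.11), Rpl7 (0.10) and Rpl10 (0.05). Rpl7, a large subunit gene, covered 2533, 2467 and 2631 bp in WT and 2749, 2719 and 2685 bp in KO, without overlap (limma adjusted p = 0.42). At Rps6, the classical substrate of S6 kinase, only KO1, at 1453 bp, exceeded the WT range of 1134 to 1169 bp. No member was called wider.

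**Figure D2:**
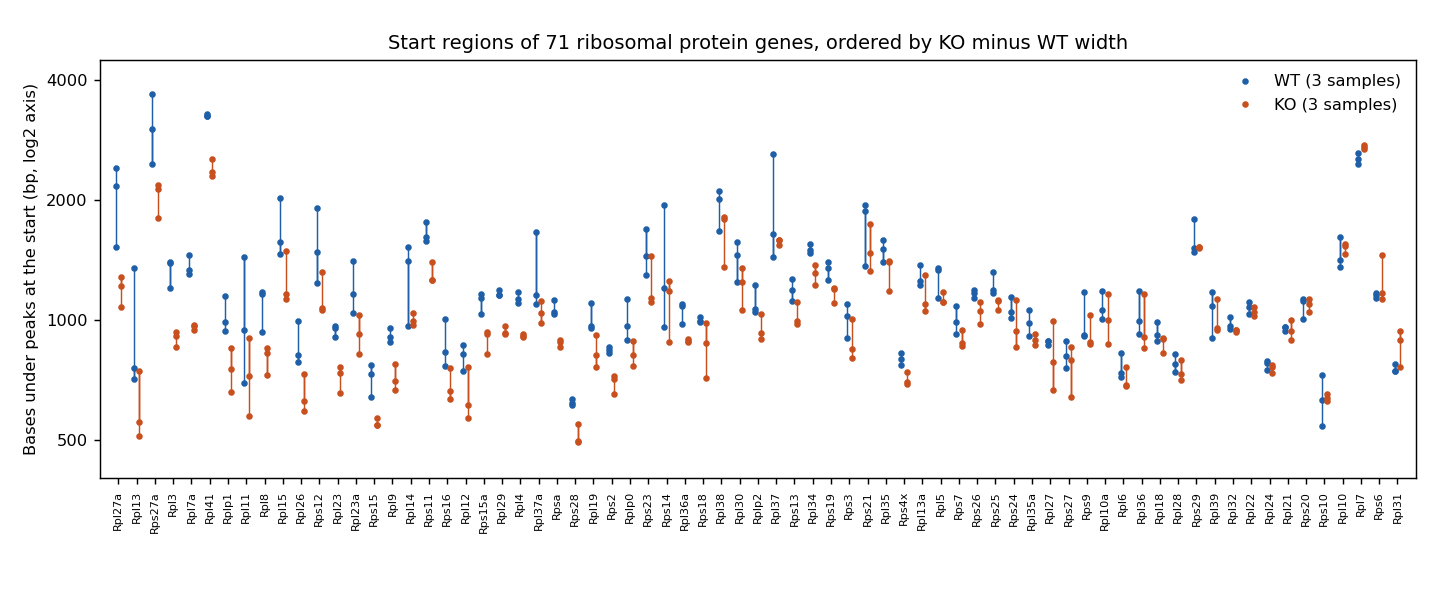
Bases under peaks in the start region of each of 71 members (log2 axis, bp) in the 3 WT (blue) and 3 KO (orange) samples, each point a sample and each line the range of a group, ordered by the KO minus WT difference in mean log2 width. Most members, from Rpl27a on the left, have KO points below their WT points, and Rpl7, toward the right, has them above.

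Start width varied among members far more than between genotypes. The mean WT width ran from 622 to 3262 bp. The widest were Rpl41, Rps27a (3053 bp), Rpl7 (2544 bp) and Rpl27a (2035 bp), and the first 3 of these share their region with the start of another gene. The narrowest were Rps28 (622 bp), Rps10 (633 bp), Rps15 (713 bp) and Rpl31 (754 bp), of which Rps28, Rps10 and Rpl31 are red cell failure genes. Red cell failure genes made up 19 of the 76 members, and their median WT width was 999 bp, against 1075 bp over all members. Groupings by subunit, snoRNA, promoter motif or shared start divided the members little. The median log2 difference was -0.23 over 45 large subunit genes and -0.19 over 30 small subunit genes, -0.23 with and -0.19 without a snoRNA, and -0.23 with and -0.21 without the ETS motif. It was -0.23 with and -0.16 without the SP/KLF box, and -0.19 with and -0.24 without a pyrimidine tract. In 16 start regions shared with another gene's start it was -0.26, against -0.19 in the rest.

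Genes of inherited or acquired red cell failure had open starts in both genotypes. Rps19, the member most often mutated in Diamond-Blackfan anaemia, covered 1349, 1261 and 1397 bp in WT and 1203, 1198 and 1106 bp in KO, without overlap (log2 difference -0.19, SE 0.09, limma adjusted p = 0.173). Rpl5 and Rpl11, which together with a small ribosomal RNA can bind Mdm2, overlapped between genotypes. Rpl5 covered 1133, 1333 and 1347 bp in WT and 1174, 1110 and 1110 bp in KO, and Rpl11 covered 693, 1435 and 943 bp in WT and 723, 900 and 574 bp in KO. The limma adjusted p was 0.29 for Rpl5 and 0.321 for Rpl11. Rps14, the gene lost from 1 copy in a deletion syndrome of the marrow, also overlapped (959, 1204 and 1941 bp in WT, 878, 1253 and 1183 bp in KO, limma adjusted p = 0.537). Over 19 members listed as red cell failure genes the median log2 difference was -0.16, with 2 above 0, against -0.09 over all genes. Of their 54 regions 4 were lost (7.41%, against 7.32% near all members and 10.7% over all genes).

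The stalk and the laminin receptor genes, named apart from the numbered members, lay below their WT values without a call. Rplp0, the base of the ribosomal stalk, covered 1126, 964 and 891 bp in WT and 815, 883 and 764 bp in KO (log2 difference -0.27, limma adjusted p = 0.157). Rplp1 covered 936, 988 and 1146 bp against 658, 849 and 755 bp (-0.44, limma adjusted p = 0.0642). Rplp2, the partner of Rplp1, covered 1063, 1221 and 1045 bp against 1032, 925 and 894 bp (-0.22, limma adjusted p = 0.185). Rpsa, which also serves as a laminin-binding protein at the cell surface, covered 1046, 1035 and 1122 bp against 890, 882 and 854 bp (-0.29, limma adjusted p = 0.0571). None of these 4 genes had overlapping groups.

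The narrowing was seen on both sides of the start. In 48 members with a single RefSeq start, the median distance from the start to the upstream edge of its peak was 507, 483 and 514 bp in WT and 388.5, 425 and 424 bp in KO. The upstream edge was nearer in every KO sample than in every WT sample in 22 of them (45.8%, against 23.3% of 6809 genes) and farther in 0 (against 5.52%). The median downstream edge lay 518 ± 37.5 bp from the start in WT and 444 ± 8.13 bp in KO (SD, n = 3). It was nearer in every KO sample in 15 members (31.2%, against 20.5%) and farther in 1 (2.08%, against 6.95%). Over the 6809 genes the median upstream edge lay at 461 ± 11.5 bp in WT and 424 ± 8.5 bp in KO (SD, n = 3). Their median downstream edge lay at 543 ± 23.8 bp in WT and 486 ± 11.5 bp in KO (SD, n = 3). Both median distances separated the genotypes, in members and over all genes alike (two-sided exact permutation p = 0.1 for each).

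Beyond the starts, a larger share of the members' bases lay under peaks than over all genes pooled, both past the far end and inside the gene, and the share was lower in KO. These coverage measures were chosen after the data were seen. They give the percent of bases under peaks, leaving out bases within 1 kb of any gene's start in the zones outside the gene. Inside the gene, bases within 1 kb of its own start were left out, and bases at the start of an overlapping neighbour were kept. In the 5 kb past the far end of 56 members with a known strand, 7.26%, 6.97% and 8.39% of bases were covered in WT and 2.35%, 3.16% and 2.54% in KO. The same zone of all genes was covered to 1.88% ± 0.0544 in WT and 1.33% ± 0.113 in KO (SD, n = 3). The ratio of members to all genes was 4 ± 0.281 in WT and 2.01 ± 0.149 in KO (SD, n = 3), without overlap (two-sided exact permutation p = 0.1). This ratio is not matched for gene length or for an open start. Genes with a start peak in all 6 samples were covered in this zone to 2.78% ± 0.0827 in WT and 1.92% ± 0.154 in KO (SD, n = 3).

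**Figure D3:**
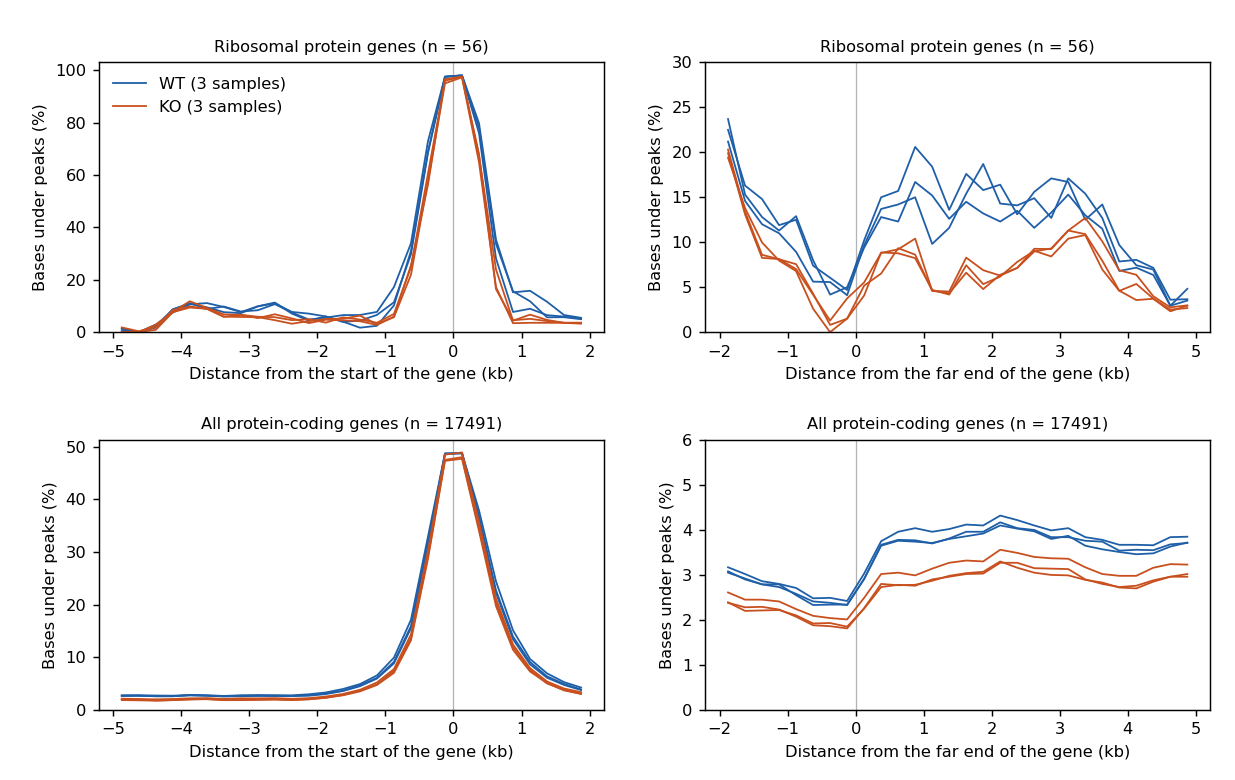
Percent of bases under peaks in bins of 250 bp around the start (left) and the far end (right) of 56 members (top) and 17491 genes (bottom), 1 line per sample, WT blue and KO orange, with all bases counted and different vertical scales. In the 2 bins that touch the start of the members all 6 lines run between 95% and 98.1%, in the next bin on either side the WT lines run above the KO lines, and past the far end of the members the 3 WT lines run above the 3 KO lines in every bin up to 3 kb.

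Single members carried much of the downstream difference. Coverage was lower in every KO than in every WT sample at 15 of the 56 members (26.8%, against 7.22% of all genes) and higher at 1, Rps13 (1.79%, against 1.71%). Among genes with any peak in that zone, these were 15 of 31 members (48.4%) against 33.4% of all. Rps12 was covered over 1577, 2201 and 3032 bp in WT and 0, 242 and 403 bp in KO. Rps15a, a red cell failure gene, was covered over 1291, 1192 and 1918 bp in WT and 0, 266 and 0 bp in KO. Without these 2 members, the percent covered was 6.26 ± 0.411 in WT and 2.67 ± 0.355 in KO (SD, n = 3), so the direction did not rest on them.

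Further members showed the same pattern with peaks that persisted in KO. Rps23, whose protein sits in the decoding centre, was covered downstream over 1014, 1236 and 1716 bp in WT and 294, 319 and 395 bp in KO. Rps9 was covered over 957, 1330 and 1208 bp in WT and 544, 558 and 572 bp in KO. Rps19 was covered over 749, 677 and 1171 bp in WT and 443, 554 and 358 bp in KO. All 3 kept a downstream peak in every KO sample, unlike Rpl27a, Rps3 and Rpl13, which had none there in KO. The remaining members of the 15 were Rpl13a, Rpl14, Rpl24, Rpl26, Rpl28, Rpl41 and Rps24, and all 15 were named after their values were seen.

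Inside the genes, over 1 kb from a start, 71 members had bases to measure. Their coverage was 4.40%, 4.43% and 6.46% in WT and 2.53%, 2.5% and 1.95% in KO, against 1.25% ± 0.0392 and 0.949% ± 0.0799 (SD, n = 3) over all genes. WT3 stood above the other WT samples, and the genotypes did not overlap (two-sided exact permutation p = 0.1). The ratio to all genes was 4.07 ± 0.808 in WT and 2.46 ± 0.335 in KO (SD, n = 3). These short members held 172 kb of such bases, against 1000677 kb in 20099 genes. The ratio is thus not matched for distance from a start. In the bin from 1000 to 1250 bp after the start, mean WT coverage was 12.2% in 56 members and 9.13% over all genes. In KO it was 5.11% and 7.6%. From 1750 to 2000 bp it was 5.22% and 3.95% in WT, and 3.46% and 3.14% in KO. A peak inside the gene, over 1 kb from a start, was found in any sample in 33 of the 71 members (46.5%), against 53.3% of all genes. The higher pooled share of bases thus came from a minority of these short genes. All members held 4355, 4301 and 3353 covered bp in KO1, KO2 and KO3. Of these, Rpl17 held 1009, 1036 and 921 bp, Rpl18 751, 517 and 460 bp, and Rpl19 759, 535 and 840 bp. In WT all members held 7565, 7613 and 11121 bp, and Rpl17 held 1039, 1084 and 1017 bp. The Rpl18 and Rpl19 peaks counted here lay at the starts of Sphk2 and Cacnb1. Of the 71, 8 (11.3%) were lower in every KO sample, against 20.7% of all genes, and 0 were higher, against 5.62%. The 8 were Rpl13a, Rpl22, Rpl29, Rpl3, Rpl36, Rps15a, Rps26 and Rps9. Rpl36 was covered over 776, 724 and 769 bp in WT and 449, 486 and 374 bp in KO, and Rps9 over 833, 428 and 857 bp in WT and 103, 132 and 66 bp in KO.

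Upstream the members behaved much as genes at large. From 1 to 5 kb before the start, 3.15% ± 0.475 of bases were covered in WT and 2.20% ± 0.293 in KO (SD, n = 3). The ratio to all genes was 1.41 ± 0.182 in WT and 1.39 ± 0.188 in KO and overlapped (two-sided exact permutation p = 1). Of 56 members, 5 were lower in every KO sample (8.93%, against 7.06%) and 2 were higher (3.57%, against 1.77%).

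The downstream difference was not found at ribosomal protein genes alone. Translation factors, which load messages and deliver transfer RNA, were covered downstream to 6.2% ± 0.33 in WT and 2.97% ± 0.621 in KO over 27 genes (SD, n = 3). Genes of ribosome biogenesis and RNA polymerase I were covered to 5.63% ± 0.418 and 3.75% ± 0.564 over 29 genes. Mitochondrial ribosomal protein genes, which serve a separate ribosome, were covered to 2.49% ± 0.084 and 2.11% ± 0.0384 over 69 genes, near the 2.78% ± 0.0827 and 1.92% ± 0.154 of genes with a start peak in all 6 samples. Regulators of ribosomal protein output were covered to 0.327% ± 0.284 in WT and 0.45% ± 0.467 in KO over 13 genes, which overlapped. The ratio of KO to WT was 0.356 for the members, 0.479 for translation factors, 0.665 for biogenesis genes, 0.848 for mitochondrial ribosomal protein genes, 1.37 for the regulators and 0.693 for genes open at the start. These lists differ in size and were set side by side without a test of their difference. The number of erythroid markers open at the start was also lower in every KO list (6 against 3), and the part of cell composition in the coverage results was not tested.

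**Figure D4:**
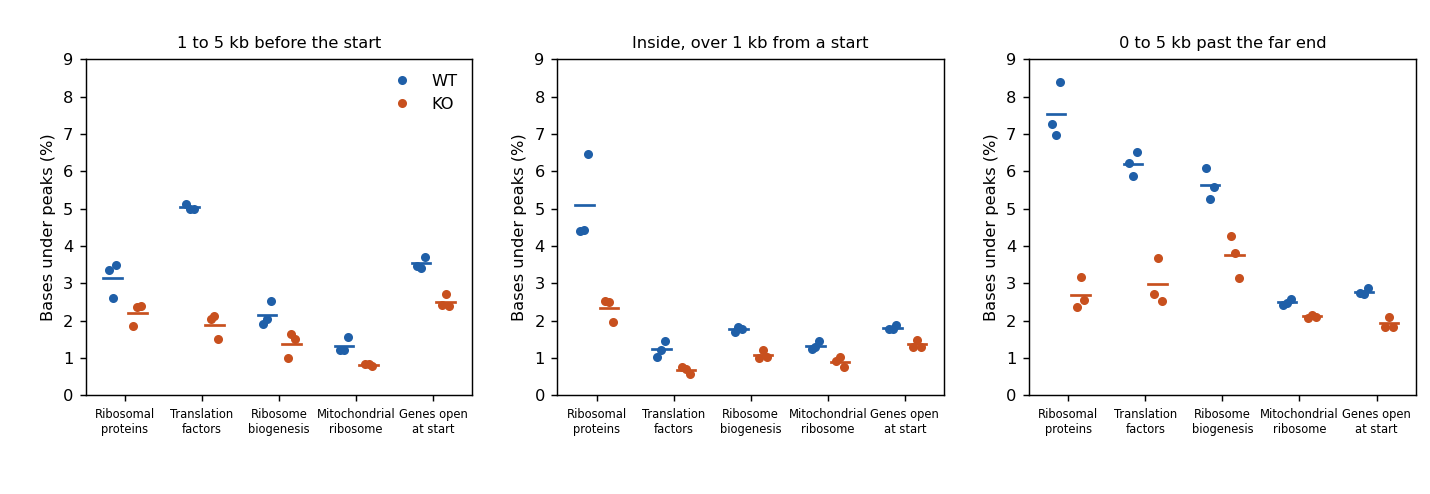
Percent of bases under peaks before the start, inside the gene and past the far end for ribosomal protein genes and 4 other lists, each point a sample (WT blue, KO orange) and each bar the mean of 3. Ribosomal protein genes run from 6.97% to 8.39% in WT past the far end and from 2.35% to 3.16% in KO, and translation factors are nearest to them there.

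Region counts of the related lists ran on either side of those of the members. Translation factors lost 12 of 101 regions (11.9%), among them regions at Eef1d, Eif3m and Eif4b, and gained 1 (0.99%). Biogenesis genes lost 8 of 97 (8.25%), including Ncl, Nop56 and Polr1a, and gained 1 (1.03%). Mitochondrial ribosomal protein genes lost 7 of 176 (3.98%) and gained 2 (1.14%). Regulators of ribosomal protein output lost 10 of 61 (16.4%), with losses at Myc, Max, Yy1, Sp1 and Trp53, and gained 3 (4.92%). Over all genes the share lost was 10.7% and the share gained 3.97%. The median start width difference was -0.15, -0.15, -0.19 and -0.10 on the log2 scale in these 4 lists, against -0.22 in the members.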

How the data were processed

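ATAC-seq peak lists of 3 WT and 3 KO samples were used, grouped by sample title. The authors deposited chromosome, start and end of each peak, called with MACS2 on mm10 per the submitters' processing notes. The sources used here do not give the aligner, filters, cut-site shift, versions or depth. Peaks sharing at least 1 bp were merged into regions. Starts and strands came from the RefSeq promoter table (GRCm38.p6, 56 members); the other 20 members used either annotated end, within 1 kb. Log2 bases under peaks, in regions open in all 6 samples, were fitted with limma 3.58.1 in R 4.3.3, with Benjamini-Hochberg adjustment over all regions and a threshold of 0.05. For single values, exact permutation tests over samples (two-sided) were used. The fit was tested on simulated data. The members, gene lists and alternatives were chosen with earlier results of these data known. Genes named in the text were those with a lost or gained region, without a start peak, with the 6 most widened and 6 most narrowed starts, with the 4 widest and 4 narrowest starts in WT, Rps19, Rpl5, Rpl11, Rps14, Rplp0, Rplp1, Rplp2, Rpsa and Kdm6a, besides all limma calls; others were named after their values were seen. Coverage inside and past genes was added after the data were seen. Of the other markers, T cell genes with a start peak numbered 0, 1 and 1 in WT and 0, 0 and 1 in KO, neutrophil genes 3, 3 and 4 against 3, 3 and 2, and stromal genes 1 in each, of 5 per list. A few members are not reported by name here.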

Additional observations from a re-analysis of the deposited data

How the results depend on the processing

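The absence of read depth limits every value, since a shorter list may reflect fewer open sites or a shallower library. The share of peaks near members changed sign, to 0.00932 percentage points within 1 kb of the gene and 0.00568 with the widest 50% of peaks, and the genotypes overlapped in both; with every list shortened to its widest peaks at 1 common length it was -0.0449 and they did not (two-sided exact permutation p = 0.1). Lost regions numbered 6 within 1 kb (4.58%, against 10.5% over all genes), 35 within 20 kb (8.5% against 10.7%), 32 where 2 of 3 samples sufficed (15.6% against 17.5%), 9 over the 54 genes listed by name (6.34% against 10.7%), 8 with lists of common length (4.37% against 7.45%) and 17 to 23 without 1 sample (8.29% to 11.3% against 11.3% to 14.2%). Gained regions numbered 1 within 1 kb (0.763% against 4.03%), 8 within 20 kb (1.94% against 4.05%), 1 with the widest 50% of peaks (0.685% against 3.74%) and 2 to 3 without 1 sample. Width calls numbered 5 with centred widths (6.67%, against 5.8% of all start regions), 3 to 5 without 1 sample and 12 with a variance trend in limma (16% against 9.38%). Same-numbered samples did not deviate together (r = -0.03, 0.03 and 0.01), so the numbers were not taken as pairs. With a replicate block there were 2 width calls (2.67%, against 4.15% of all). In this balanced design a block cannot change a difference of group means, so it does not check the differences in share, coverage and median width. For these, an exact sign-flip test over same-numbered samples gave p = 0.25, the smallest it can give. The downstream coverage difference lay between -4.43 and -5.14 percentage points without 1 sample and at -4.19 with lists of common length. The inside-gene difference lay between -2.08 and -3.12 without 1 sample. The median width difference lay between -0.16 and -0.23 in all alternatives run.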
